A study of Mus musculus with 2 samples.

Results

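The cytosolic ribosomal protein genes had nearly the same signals in the pancreas of threonine-deficient offspring as in that of control offspring, with 35 of 45 readable genes within 1.1-fold. There were 48 such genes with a probe set of their own. They were chosen by symbol from the platform annotation, as Rpl or Rps followed by a number and, where present, one of a few paralogue suffixes, together with Rpsa and the stalk proteins Rplp0 and Rplp2. The choice used no measured value, and the 48 are part of 18193 named genes. Of them, 26 encode or resemble proteins of the large and 22 of the small ribosomal subunit. Where a gene had several probe sets, the one brightest by mean log2 signal stands for it.

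The threonine-deficient group was male C57BL/6J offspring whose dams ate a diet lacking threonine, an essential amino acid, from embryonic day 12.5 to 14.5, and the control group was male C57BL/6J offspring whose dams ate control diet over those days. Offspring of both groups were weaned at 3 weeks onto control diet and sampled at 10 weeks of age. Each group was 1 pool of whole-pancreas RNA on 1 Affymetrix mouse expression array, and how many animals went into a pool is not known here. There were thus no replicates, no difference below has a test, and every ratio compares these 2 pools only.

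The cytosolic ribosome is built from ribosomal RNA and many proteins, each present once or a few times, which are assembled in the nucleolus and exported as a large and a small subunit. The mRNAs of these proteins begin with a run of pyrimidines, the terminal oligopyrimidine or TOP motif, through which mTORC1 and the RNA-binding protein LARP1 tie their translation to amino acid supply. Acinar cells, the bulk of the pancreas, carry a very dense rough endoplasmic reticulum for the synthesis of digestive enzymes. An array measures the amount of an mRNA and not how much of it is being translated, so the TOP mechanism itself lies outside these values.

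Stretches around the annotated transcription starts are shown for the members with the 3 highest and the 3 lowest log2 ratios that had an entry and passed the floor in both pools, and for both stalk genes, whose ratios lay close to 0. Each runs from 60 bases before to 20 bases from the start on, 5′ to 3′ on the gene's strand, as in RefSeq for GRCm38.p6. Capitals mark CTTTC, a pyrimidine run of the kind that opens TOP mRNAs, and CCGGAAG or its reverse complement, the core of sites for ETS-family factors.
Rpl39: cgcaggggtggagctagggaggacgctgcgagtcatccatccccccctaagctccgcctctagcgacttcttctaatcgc
Rpl7l1: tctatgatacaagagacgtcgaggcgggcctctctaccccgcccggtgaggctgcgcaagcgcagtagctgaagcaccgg
Rpl12: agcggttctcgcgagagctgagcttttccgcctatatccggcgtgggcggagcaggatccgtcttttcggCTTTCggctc
Rps27: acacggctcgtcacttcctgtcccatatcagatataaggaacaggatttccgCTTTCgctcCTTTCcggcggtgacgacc
Rpl37: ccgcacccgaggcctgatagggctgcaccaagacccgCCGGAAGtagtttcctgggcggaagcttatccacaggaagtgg
Rps25: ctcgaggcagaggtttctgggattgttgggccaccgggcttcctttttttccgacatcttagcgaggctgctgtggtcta
Rplp0: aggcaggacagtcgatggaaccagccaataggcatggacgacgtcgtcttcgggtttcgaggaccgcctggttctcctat
Rplp2: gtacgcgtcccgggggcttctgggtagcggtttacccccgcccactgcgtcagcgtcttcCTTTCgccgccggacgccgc

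On GRCm38.p6 these stretches lie at chrX:37085203-37085282 on the minus strand for Rpl39, chr17:46782637-46782716 (minus) for Rpl7l1, chr2:32961652-32961731 (plus) for Rpl12 and chr3:90213629-90213708 (minus) for Rps27. Those of Rpl37, Rps25, Rplp0 and Rplp2 are on the plus strand at chr15:5116553-5116632, chr9:44407654-44407733, chr5:115559407-115559486 and chr7:141447591-141447670. Each covers the promoter and the first bases of the transcript.

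RefSeq promoters were matched for 42 of the 48 genes. CTTTC, searched on the gene's strand from 50 bases before to 50 bases after any annotated start, was present in 20 of these 42 (47.6%), against 14.6% of the 27025 genes with a promoter entry. CCGGAAG, searched on both strands from 250 bases before to 50 after, was also present in 20 of 42 (47.6%), against 9.93% of all genes. TATAAA, searched on the gene's strand in the 50 bases before the start, was present in 1 of 42 (2.38%), Rpl22l1, against 3.15% of all genes. The windows searched reach beyond the stretches shown, where such matches carry no capitals. Matches of this kind were CTTTC in Rpl39 and Rpl37, and CCGGAAG in Rpl39, Rps25 and Rplp2. In Rpl39 and Rpl37 the CTTTC reached past the 20 bases shown from the start on, so it does not open the annotated transcript. Annotated starts can lie some bases away from those used in the pancreas. A missing match thus says only that these letters are not in the window. The log2 ratios of the genes with and without CTTTC lay close together, with medians of −0.03 over 19 genes above the floor and −0.04 over 20. For CCGGAAG the medians were −0.03 over 19 genes with it and −0.05 over 20 without it.

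Signals are MAS5 signal units, a linear intensity per probe set that the authors had scaled to the same trimmed mean on both arrays. Signals under 264.9 (the 60th percentile of the array where it was higher) were raised to that floor, and all ratios are log2 of the threonine-deficient over the control signal. Both arrays read 44 of the 48 genes above the floor, the control array alone read 1 and neither read 3, which leaves 45 with a ratio. For a single gene the local spread, the scaled median absolute deviation among the 500 genes nearest in mean signal, stands in for an error. It includes true differences as well as noise. Fewer than 500 named genes had a mean signal of at least 10000. For bright genes the 500 thus included dimmer ones, and the spread was matched to signal only loosely. The ratios of 8 of the 45 genes (17.8%) were farther from 0 than their local spread, here called beyond it. So were those of 32.7% of all named genes above the floor. Among the other named genes with a mean signal of at least 10000 it was 32.1%. Distances are from 0, although the local median was −0.06 at the signal of Rpl8 and 0.04 at that of Rpl12. Measured from the local median, genes near the edge such as Rps10 would change sides.

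The 45 genes had a median log2 ratio of −0.03, with 19 positive and 26 negative values. Over all 10758 named genes above the floor it was 0.00. The summed signal of the 45 genes was 2398901 in the threonine-deficient and 2428754 in the control pool, a ratio of 0.988. Within 1.1-fold of equal signal lay 35 of the 45 genes (77.8%), where 33.8% of all named genes did. The scaled median absolute deviation was 0.08 over the 45 genes and 0.33 over all named genes above the floor.

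**Figure D1:**
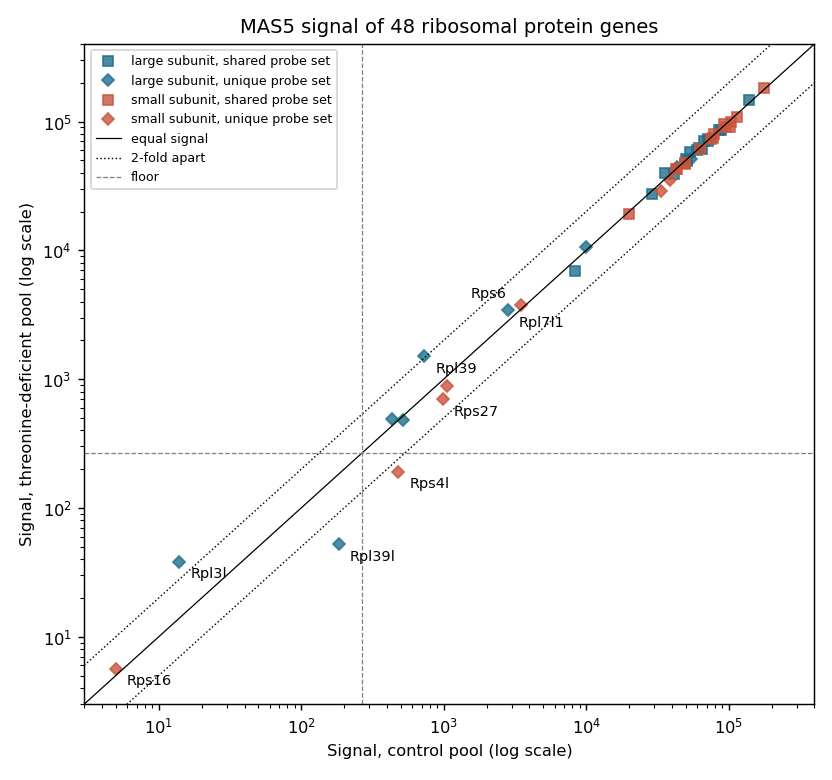
MAS5 signal of each of the 48 genes in the threonine-deficient pool (vertical) against the control pool (horizontal), both on log axes, with the line of equal signal, lines 2-fold apart and the floor of 264.9. The genes with signals of 10000 or more lie along the line of equal signal, Rpl39 touches the upper 2-fold line, and Rpl39l, Rpl3l and Rps16 lie under the floor on both arrays.

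Most of these genes are bright, and bright probe sets vary less, so a narrower background was added after the values were seen. With a geometric mean signal of at least 10000 there were 36 ribosomal protein genes and 290 other named genes. Above that cut the signals of both groups were not matched, so brightness is held equal only loosely. The 36 had a median log2 ratio of −0.03 and a scaled median absolute deviation of 0.08, against −0.06 and 0.14 for the 290, a deviation 1.74 times that of the ribosomal protein genes. Of the 36, 33 (91.7%) were within 1.1-fold, where 63.4% of the other bright genes were. Negative ratios were held by 21 of the 36 (58.3%), beside 65.2% of the other bright genes and 49.9% of all named genes above the floor.

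Counts past a threshold were small. At least 2-fold apart was 1 gene, Rpl39, which was higher in the threonine-deficient pool, and none was at least 2-fold lower. That compares with 1.28% of all named genes above the floor upwards and 0.874% downwards. At least 1.2-fold higher were 2 of the 45 genes, Rpl39 and Rpl7l1, beside 22.5% of all named genes. At least 1.2-fold lower were 3 of the 45, Rps4l, Rps27 and Rpl37, beside 20.9% of all named genes. None of the 36 bright genes reached 1.2-fold in either direction, where 3.45% of the other bright genes did so upwards and 6.21% downwards. All 5 genes past 1.2-fold were thus dimmer than a signal of 10000, and the 36 bright ones ran from a difference of −13.2% to one of 11.4%.

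**Figure D2:**
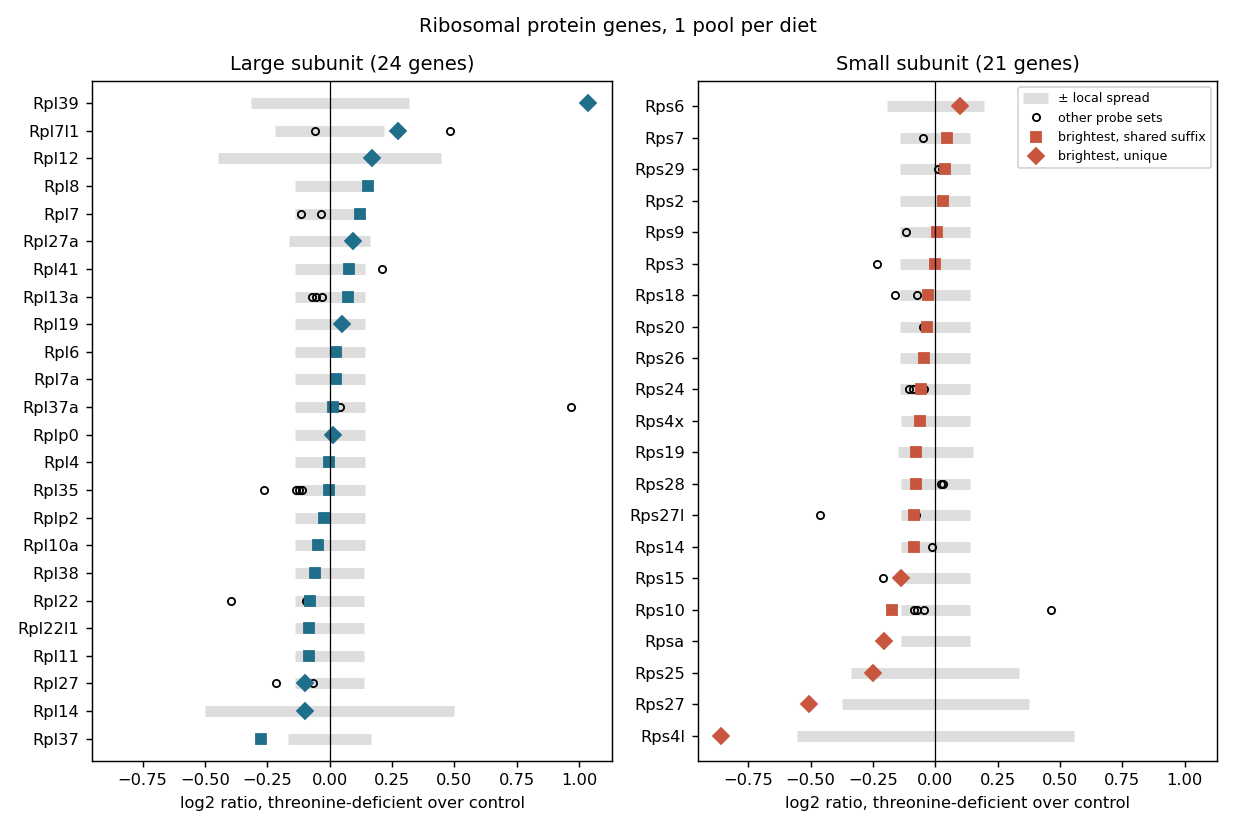
Log2 ratio of threonine-deficient over control signal for the 24 large-subunit and 21 small-subunit genes above the floor, ordered by ratio, with the brightest probe set as a filled symbol (square for a shared suffix, diamond for a unique probe set), other probe sets above the floor on both arrays as open circles, and the local spread as a grey bar around 0. Rpl39 stands at 1.04 and Rps4l at −0.86, and most other filled symbols lie inside the grey bars.

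The large subunit had a slightly higher median than the small subunit. Over 24 large-subunit genes the median log2 ratio was 0.01, with 13 positive and 11 negative, and over 21 small-subunit genes it was −0.06, with 6 positive and 15 negative. The difference was 0.07, and the scaled median absolute deviation of single genes was 0.11 in the large and 0.10 in the small subunit. Genes are not replicates of a pool, so whether the subunits differ was not tested. Among the bright genes the medians were 0.01 over 19 large-subunit genes and −0.06 over 17 small-subunit genes. The middle 50% of the ratios overlapped, at −0.05 to 0.06 for the large and −0.08 to 0.00 for the small subunit. Negative ratios were held by 9 of the 19 large-subunit (47.4%) and 12 of the 17 small-subunit genes (70.6%). Among the other bright genes 65.2% were negative and the median was −0.06, close to the values of the small subunit. Of all named genes above the floor 49.9% were negative. With a gene's median over its probe sets in place of the brightest, the subunits were 0.04 apart, and with unique probe sets only they were 0.29 apart over 17 genes.

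**Figure D3:**
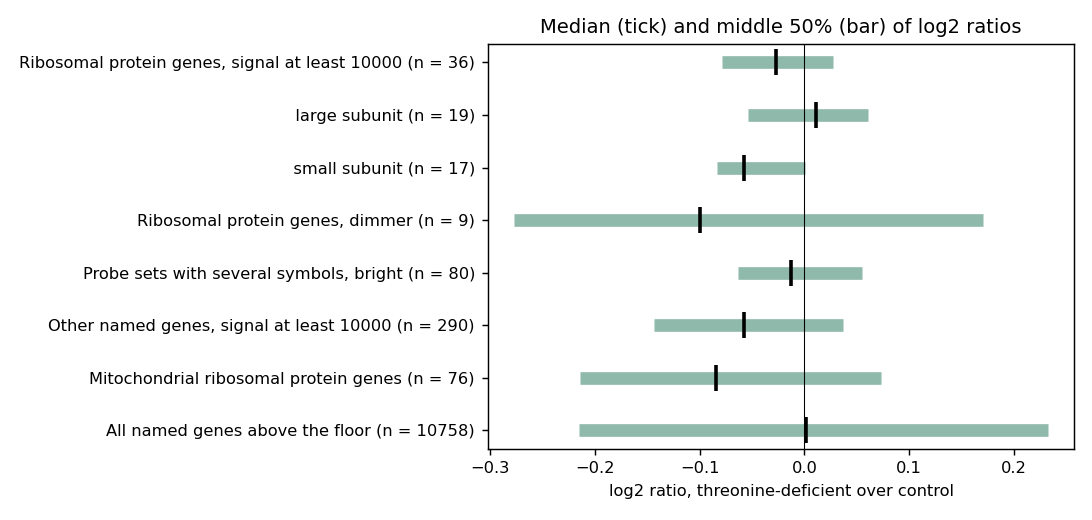
Median (tick) and middle 50% (bar) of the log2 ratios of threonine-deficient over control signal for the ribosomal protein genes by signal and subunit and for other groups of genes, with the number of genes or probe sets in each. Of the groups drawn, the small-subunit bright genes have the shortest bar, and the bar for all 10758 named genes above the floor runs from −0.21 to 0.23.

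Among the stalk genes, Rplp0, the base on which the stalk is built, had a signal of 72781 in the threonine-deficient and 72202 in the control pool, a log2 ratio of 0.01. Rplp2, one of the acidic proteins that draw elongation factors to the ribosome, had 69982 in the threonine-deficient and 71206 in the control pool (−0.03). The pools were thus within 2% of each other for both. Rplp1, the partner of Rplp2, was read only by probe sets with several symbols and was not analysed here.

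Other large-subunit genes ranged more widely. Rpl4, which lines the narrow part of the exit tunnel, had 85635 in the threonine-deficient and 85762 in the control pool. Rpl11, part of the ribonucleoprotein that binds Mdm2 when ribosome assembly is disturbed, had 61588 in the threonine-deficient and 65311 in the control pool, a log2 ratio of −0.08 with a local spread of 0.14. Rpl5, its partner in that particle, and Rpl23, a separate binder of Mdm2, were read only by probe sets with several symbols. Rpl8, a protein near the catalytic centre, had 39943 in the threonine-deficient and 35870 in the control pool, and at 0.16 its ratio was the highest among the bright genes, just past its local spread of 0.14. Rpl7 had 58454 in the threonine-deficient and 53801 in the control pool (0.12) in its brightest probe set, while its other 2 probe sets gave −0.04 and −0.11, so the sign depended on the probe set.

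The large-subunit genes with the widest ratios were dim. Rpl39, a very small protein of the exit tunnel, had 1501 in the threonine-deficient and 732 in the control pool, 2.05-fold higher. Its log2 ratio of 1.04 was the only one among the 45 beyond 2 local spreads (0.32 each), and it rested on 1 unique probe set. Rpl39 also appears on probe sets with several symbols. Among the 96 such probe sets of this family above the floor the highest log2 ratio was 0.58, so none of them repeated a 2-fold difference upwards. Rpl12, which sits at the base of the stalk, had 492 in the threonine-deficient and 437 in the control pool, and its ratio of 0.17 lay well inside the local spread of 0.45 for signals of that size. Rpl37 had 6920 in the threonine-deficient and 8384 in the control pool (−0.28, local spread 0.17), read by 1 probe set with a shared suffix.

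In the small subunit, Rps6, the substrate of the S6 kinases downstream of mTORC1, had 3754 in the threonine-deficient and 3505 in the control pool, a log2 ratio of 0.10 where the local spread was 0.19. Although it was the highest ratio of that subunit, it was inside the spread. Rpsa, which also serves as a laminin receptor precursor, had 28888 in the threonine-deficient and 33285 in the control pool, and at −0.20 it was the lowest of the bright genes and beyond its local spread of 0.14. Rps15 had 35177 in the threonine-deficient and 38656 in the control pool (−0.14, local spread 0.14), and its other probe set gave −0.21, on the same side.

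Rps10, a protein near the mRNA entry that is ubiquitinated when ribosomes collide, had 91275 in the threonine-deficient and 102975 in the control pool (−0.17, local spread 0.14). Of its other 4 probe sets above the floor, 3 gave −0.08, −0.07 and −0.05, and the dimmest gave 0.47. The ratio of the brightest probe set was thus the lowest of the 5. Rps25, required for several kinds of internal initiation, had 882 in the threonine-deficient and 1049 in the control pool, and its −0.25 was inside a local spread of 0.34. Rps27, a zinc-finger protein, had 697 in the threonine-deficient and 989 in the control pool, the lowest ratio above the floor on both arrays at −0.50, with a local spread of 0.37.

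Further bright genes of both subunits are given for their known roles. Rps19, the gene most often mutated in Diamond-Blackfan anaemia, had 18981 in the threonine-deficient and 20016 in the control pool (−0.08). Rps3, at the mRNA entry channel, had 43117 in the threonine-deficient and 43105 in the control pool, a log2 ratio of 0.00. Rpl38, needed for normal patterning of the mouse axial skeleton, had 85383 in the threonine-deficient and 88965 in the control pool (−0.06). The pools differed in each of these by less than the local spread of 0.14 to 0.15.

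Genes read by several bright probe sets could be followed more closely. Rps29, a small zinc-binding protein, had 182555 in the threonine-deficient and 177537 in the control pool (0.04), and its other probe sets gave 0.01 and 0.03. Rps24 had 74224 in the threonine-deficient and 77241 in the control pool (−0.06), with its other 3 probe sets above the floor between −0.10 and −0.05. The sign was thus the same in every probe set of these genes that was above the floor on both arrays. Rps28 had 108753 in the threonine-deficient and 114884 in the control pool (−0.08), but 0.02 and 0.03 in its other probe sets. Rpl41, one of the smallest proteins of the cell, had 146907 in the threonine-deficient and 139130 in the control pool (0.08), and 0.21 in the next probe set. Rpl35 had 59633 in the threonine-deficient and 59753 in the control pool, a ratio of 0.00, with the other 4 bright probe sets between −0.26 and −0.11, so its brightest probe set was the highest of the 5.

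Many of the dimmer genes also had probe sets with an ambiguous annotation. Of the 9 genes above the floor with a signal under 10000, 7 also appear on probe sets that the platform assigns to several symbols, against 7 of the 36 bright genes. These 7 were Rpl12, Rpl14, Rpl37, Rpl39, Rps6, Rps25 and Rps27. Such probe sets were not used to name a gene, so for these 7 the value given is that of the probe set left over. Rps16 is a case of its own, since its single-symbol probe set had a signal of 6 in the threonine-deficient and 5 in the control pool, under the floor on both, and it too appears on probe sets with several symbols. Taken without names, 96 probe sets with several symbols that include a gene of this family were above the floor, with a median log2 ratio of −0.01 and a range from −0.64 to 0.58. In all, 110 such probe sets listed 28 genes of the symbol pattern that are not among the 48.

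Paralogues were compared with their parent genes. Rpl22l1, the close relative of Rpl22, had 27208 in the threonine-deficient and 28809 in the control pool (−0.08), and Rpl22 had 39065 in the threonine-deficient and 41239 in the control pool (−0.08). Rps27l, a relative of Rps27 and a known p53 target, had 46930 in the threonine-deficient and 49717 in the control pool (−0.08), while Rps27 itself was at −0.50 in a dim probe set. A further bright probe set of Rps27l gave −0.46, with 30476 in the threonine-deficient and 42027 in the control pool. It had the suffix _a_at, which marks variants of 1 gene. The remaining 2, both at −0.08, did not share this reading and had the suffix _x_at, which marks possible cross-hybridisation. Which of them read Rps27l more closely was not tested.

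Rpl7l1, a relative of Rpl7, had 3426 in the threonine-deficient and 2832 in the control pool, a log2 ratio of 0.27 with a local spread of 0.22. Its other probe sets gave 0.48 and, in the dimmest, −0.06. Rps4x, the X-linked parent of the Rps4 group, had 91180 in the threonine-deficient and 95060 in the control pool (−0.06). Rps4l, which RefSeq lists as a transcribed pseudogene, had 191 in the threonine-deficient and 480 in the control pool and was at least 1.81-fold lower, since the threonine-deficient signal is under the floor. The local spread there was 0.56 on the log2 scale.

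Paralogues known from restricted tissues were under the floor on both arrays. Rpl3l, the form of heart and skeletal muscle, had 38 in the threonine-deficient and 14 in the control pool. Rpl39l, a form abundant in testis, had 52 in the threonine-deficient and 185 in the control pool. No ratio is given for either. Rpl3, Rpl10 and Rpl10l were not analysed here.

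Probe sets of 1 gene served as repeat readings. The 48 genes had 104 probe sets, 70 with a suffix that marks possible sharing between transcripts (_a_at, _s_at or _x_at) and 34 unique ones. Of these, 86 were above the floor on at least 1 array. Over the 20 genes with another probe set that passed the floor, the standard deviation of 1 probe set was 0.08 on the log2 scale, and 14 of the 20 pairs had the same sign. For all 4251 named genes with such a pair it was 0.37, and 52.1% had the same sign. Among genes with both probe sets bright, the sign was the same in 13 of 18 ribosomal protein genes (72.2%) and 52 of 80 other genes (65.0%). There the standard deviation of 1 probe set was 0.06 for the ribosomal protein genes and 0.11 for the others. Most ratios of bright ribosomal protein genes were thus of the size of this error. It covers probe and hybridisation noise and not the difference between animals.

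The widest disagreements between probe sets came from dim readings, except in Rps27l. In Rpl37a, whose 2 bright probe sets gave 0.01 and 0.04, a dim one with 688 in the threonine-deficient and 352 in the control pool gave 0.97. Next were Rps10 with a range of 0.64, Rpl7l1 with 0.54 and Rps27l with 0.39, the last from the bright probe set given above. In Rpl22 a dim probe set with 1832 in the threonine-deficient and 2413 in the control pool gave −0.40, against −0.08 and −0.10 in the brighter ones.

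Shared-suffix and unique probe sets differed more in brightness than in ratio. Under the floor on both arrays were 15 of the 34 unique and 3 of the 70 shared probe sets, and a signal of at least 10000 was reached by 7 unique and 60 shared ones. Of those above the floor, 67 shared probe sets had a median log2 ratio of −0.05 and 19 unique ones −0.10, and the scaled median absolute deviation was 0.08 for the shared and 0.23 for the unique ones. Among bright probe sets the medians were −0.05 for the 60 shared and −0.10 for the 7 unique ones. The suffixes that mark variants of 1 gene (_a_at) and possible cross-hybridisation (_x_at) had the same median of −0.05 over 24 and 34 bright probe sets.

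**Figure D4:**
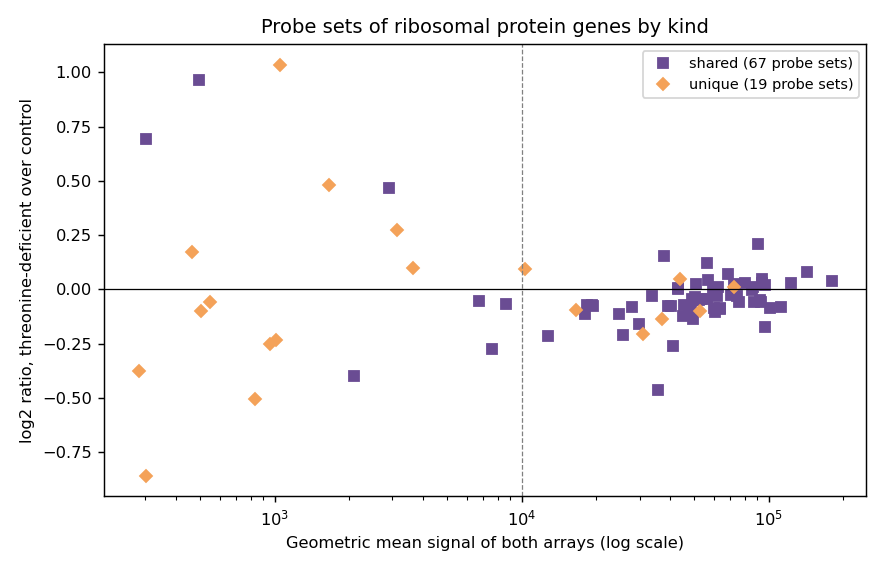
Log2 ratio of threonine-deficient over control signal against geometric mean signal (log axis) for the 67 shared-suffix and 19 unique probe sets of ribosomal protein genes above the floor on at least 1 array, with a dashed line at a signal of 10000. Right of that line 1 probe set, a reading of Rps27l at −0.46, is more than 1.2-fold from 0, and the wide ratios on the left belong to probe sets of both kinds.

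In 5 genes both kinds were above the floor. The mean of the shared minus that of the unique probe sets was −0.14 in Rpl22, −0.04 in Rpl27 and −0.07 in Rps15. Among bright probe sets alone, which these 3 genes have of both kinds, the difference was 0.02 in Rpl22, −0.12 in Rpl27 and −0.07 in Rps15, so the sign in Rpl22 rested on its dim probe set. It was 0.23 in Rps3 and 0.32 in Rps9, whose unique probe sets were dim, at 932 and 233 in the threonine-deficient pool. The sign went both ways among the 5 genes. Of the 48 genes, 34 have at least 1 pseudogene that carries their name in the RefSeq table, up to 14 for Rpl7a, so cross-reading of pseudogene transcripts by a shared probe set cannot be told apart from the gene's own signal.

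Genes that make or regulate ribosomes were read from lists chosen with earlier results of these arrays known. The 17 further TOP mRNAs above the floor had a median log2 ratio of −0.03, with 7 positive and 10 negative and 1 at least 1.2-fold lower. That one was Snhg1, a host gene of small nucleolar RNAs, with 2598 in the threonine-deficient and 3767 in the control pool (−0.54). The elongation factor gene Eef1a1 had 158154 in the threonine-deficient and 157031 in the control pool, and Tpt1 had 173397 in the threonine-deficient and 173736 in the control pool, as close as the ribosomal proteins. Eif3e and Eif3f, subunits of an initiation factor, both had 0.09, and Eif4b had −0.19. Of the ribosome components outside the symbol rule, 2 were readable, Fau at −0.03 and Rps3a1 at −0.10.

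Regulators of TOP mRNAs and of ribosome production had a median of 0.01 over 17 genes, with 2 past 1.2-fold upwards and 4 downwards. Mtor, the kinase of mTORC1, had 1612 in the threonine-deficient and 1111 in the control pool (0.54, local spread 0.29), and its inhibitor Tsc1 had 0.33. At the other end were Mycn at −0.59 and the kinase gene Akt1 at −0.39. Also past 1.2-fold downwards were Rptor and Mlst8, whose proteins belong to mTORC1 with Mtor. Rptor had −0.339, inside its local spread of 0.344. Mlst8 had 101 in the threonine-deficient pool, under the floor, and 332 in the control pool, so at most −0.33 with a local spread of 0.31. The signs for mTORC1 components thus went both ways, but the downward ones rested on a ratio inside its spread and on a gene near the floor.

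The machinery that makes and processes ribosomal RNA had wider ratios and wider local spreads. RNA polymerase I and its factors had a median of 0.09 over 16 genes, 4 of them at least 1.2-fold higher and 2 lower, with Polr2h at 0.39 and Polr1c at −0.47. Proteins of small nucleolar ribonucleoproteins and the nucleolus had a median of 0.07 over 14 genes, 3 higher and 1 lower by that measure. Nop58, a core protein of those particles, had 1431 in the threonine-deficient and 903 in the control pool (0.66, local spread 0.28), and Gar1 had −0.52.

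Assembly factors went both ways. For the small subunit the median was −0.03 over 31 genes, with 7 at least 1.2-fold higher and 3 lower, among them Wdr3 at 0.68 and Noc4l at −0.52. Nol6 had 598 in the threonine-deficient and 93 in the control pool, which is under the floor, so its log2 ratio was at least 1.17, and it was the 1 gene of the small- and large-subunit assembly lists at least 2-fold apart. For the large subunit it was 0.05 over 35 genes, with 6 higher and 5 lower. The nucleolar GTPase genes Gnl2 and Gnl3 had 0.67 and 0.61 there, Nvl, under the floor in the control pool, had at least 0.95, and Nle1 had −0.91. Ribosome quality control and recycling had a median of −0.07 over 9 genes, with Zfp598, the ligase that marks collided ribosomes, at 0.34 and Ascc3 at −0.50. In all of these lists the shares at least 1.2-fold apart stood beside 22.5% of all named genes upwards and 20.9% downwards.

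Mitochondrial ribosomal protein genes, the nearest group by function, had a median log2 ratio of −0.08 over 76 genes above the floor, a scaled median absolute deviation of 0.23, and 7 genes (9.21%) past 1.2-fold upwards and 16 (21.1%) downwards, where 22.5% and 20.9% of all named genes were. The difference in spread from the cytosolic genes was not tested.

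Array-wide values are given here for comparison. Median signals were 183.8 in the threonine-deficient and 164.7 in the control pool, and the ratio of 3′ to 5′ control probe sets was 1.53 in the threonine-deficient and 1.46 in the control pool for beta-actin. For Gapdh it was 0.828 in the threonine-deficient and 0.973 in the control pool. The 6 bright poly-A control probe sets, from transcripts added to the RNA, ranged from −0.06 to 0.16, and the 15 bright hybridisation controls from −0.32 to 0.06. The bright ribosomal protein genes, at −0.20 to 0.16, reached lower than the poly-A controls and higher than the hybridisation controls. The 3 control probe sets for small-subunit ribosomal RNA were higher in the threonine-deficient pool by log2 ratios of 0.11 to 0.59, and the part of that RNA in the values above was not tested.

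The label of pancreas was checked on acinar markers, of which all 11 readable ones were above the floor, among them Prss2 at 245908 in the threonine-deficient and 242235 in the control pool. Their ratios were positive in 11 of 11, with a median of 0.14, and islet markers were negative in 8 of 8, with a median of −0.43. Adipocyte markers summed to 13880 in the threonine-deficient and 31224 in the control pool, and B and plasma cell markers to 5721 in the threonine-deficient and 11093 in the control pool. Of the B and plasma cell markers above the floor 3 were negative, Ighm, Mzb1 and Jchain, and 3 positive, Cd22, Ms4a1 and Cd79b. Endothelial markers above the floor were positive in 7 of 7, with a median of 0.36. Duct markers were positive in 2 and negative in 2, and macrophage markers positive in 4 and negative in 4. Fibroblast and stellate cell markers were positive in 2 and negative in 3, and the 1 erythroid marker above the floor was positive. T cell markers summed to 1875 in the threonine-deficient and 1434 in the control pool. Of the 6 T cell markers read, Cd3d, Cd3e and Cd3g were under the floor on both arrays, Cd2 and Cd4 were above it on 1 array each, and Cd8a had 945 in the threonine-deficient and 696 in the control pool. Fewer cells of a type and less RNA per cell cannot be told apart in such pools, and the part of these shifts in the ribosomal protein values was not tested.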

How the data were processed

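RNA from whole pancreas was measured on 2 arrays, 1 pool per maternal diet. The deposited values are a linear signal intensity per probe set made with MAS5 (version unstated), per the submitters' processing notes. After 2% trimming at each end the mean was 500.0 on both arrays, so differences in total mRNA cannot be seen. Of 45101 probe sets, 64 were controls, 34945 carried 1 symbol, 932 several and 9160 none. Symbols were updated through gene identifiers in the RefSeq table of GRCm38.p6, which matched 34741. Python 3.11.15, numpy 2.4.6, pandas 2.3.3, scipy 1.17.1 and statsmodels 0.14.6 were used.

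No test was made, as the number of arrays limits the precision. The members and lists were chosen with earlier results of these data known. Named members were the 6 highest and 6 lowest ratios above the floor on both arrays, those under the floor, stalk genes, Rpsa, Rpl11, Rps6, paralogues with their parents and the 5 widest probe set ranges, and of each list the 2 highest and 2 lowest above the floor on both arrays. Rpl4, Rpl14, Rpl27, Rpl35, Rpl38, Rpl41, Rps3, Rps9, Rps19, Rps24, Rps28, Rps29, Eef1a1, Tpt1, Rptor, Mlst8, Nol6, Nvl and the markers were added after their values were seen. The alternatives were other floors, a pseudocount, other scaling and other probe sets. The floored ratio and the 2-fold calls were tested on simulated data with known answers, and the symbol rule on a few symbols. The other steps were not tested in this way.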

Additional observations from a re-analysis of the deposited data

How the results depend on the processing

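No paired analysis was possible because each diet has 1 array. Of 79 values of the main results under the alternatives, 60 stayed within the spread of the result (for counts, within 1.5 times). For medians that spread is the scaled median absolute deviation over the square root of the number of genes or probe sets. It was 0.0124 for the median ratio and 0.0315 for the subunit difference. Genes are not replicates, so it is only a yardstick for these shifts and no error between pools. The median log2 ratio of −0.03 became −0.013 after centring, −0.0079 after loess and −0.10 with unique probe sets only (17 genes). The difference between large and small subunit, 0.07, was 0.035 with the median over probe sets and 0.29 with unique probe sets only. The count of genes at least 2-fold higher, 1, was 2 with no floor and 0 with a pseudocount, with shared-suffix probe sets only and among the 36 bright genes, a background added after the data were seen. The count at least 2-fold lower, 0, was 2 with no floor and 1 with the floor at the 50th percentile. The count at least 1.2-fold higher, 2, was 1 with a pseudocount and without paralogues, and 0 with shared-suffix probe sets only and among the bright genes. The count at least 1.2-fold lower, 3, was 1 with shared-suffix probe sets only and 0 among the bright genes. The shared minus unique difference, 0.05, was −0.011 with the floor at the 75th percentile. The repeat probe set spread, 0.08, was 0.64 with no floor, where readings under the floor enter. Apart from the counts, whose genes or floor the alternative itself changes, the cause was not tested. Of 195 values of named members none turned its sign once past 1.2-fold. This says little, since members with 1 probe set, such as Rpl39 and Rps27, cannot change with the choice of probe set. Below 1.2-fold, Rpl7 turned from 0.12 to −0.04 with the median over its probe sets. Signals under the floor limit the paralogues.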
